A study of Mus musculus with 2 samples.

Results

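The 10 genes described here encode the COMPASS family of histone H3 lysine 4 (H3K4) methyltransferases: the shared core subunits Dpy30, Ash2l, Wdr5 and Rbbp5 and the catalytic subunits Setd1a, Setd1b, Kmt2a, Kmt2b, Kmt2c and Kmt2d. They were taken by symbol, and all 10 were found among the 27998 genes of the files. No rule on measured values chose them, but earlier results of these data were known at the time. The tissue was the pancreas of C57BL/6 mouse embryos at day 18.5, and single-cell transcripts were counted in 1 control and 1 knockout library, the latter of a genotype named Dpy30∆P in the series. The labels name neither the allele and the deleted part nor the Cre driver, if any, and nothing says how many animals each library holds. Cells with at least 500 detected genes and at most 10% mitochondrial UMIs were kept, and UMIs (the unique molecular identifiers that mark each captured transcript) were summed by library and by cell class.

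COMPASS complexes place methyl groups on H3K4, a mark of active promoters and enhancers. WDR5, RBBP5, ASH2L and DPY30 form a module that every family member shares and that raises the activity of the catalytic subunit, with DPY30 bound to ASH2L. SETD1A and SETD1B account for much of the trimethylation at promoters, KMT2A and KMT2B (MLL1 and MLL2) act at promoters of developmental genes, and KMT2C and KMT2D (MLL3 and MLL4) place monomethylation at enhancers. In the developing pancreas, acinar cells make digestive enzymes, ductal cells line the ducts, and endocrine cells arise from Neurog3-positive progenitors and make hormones.

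The control library kept 2607 cells and the knockout library 3233, with medians of 6828 and 6631 UMIs per cell. The 2 libraries shared 12 of their kept barcodes. Clusters were named by marker genes, without use of the 10 genes, and 7 classes had at least 50 cells in each library: acinar-like (109 control, 763 knockout), ductal-like (505, 381), endocrine-like (370, 238), mesenchymal-like (956, 1230), mesothelial-like (215, 187), endothelial-like (179, 118) and macrophage and myeloid-like cells (86, 108). In the acinar-, ductal-, mesenchymal-, mesothelial-, endothelial- and macrophage-like classes, every marker of the class's own list had UMIs in both libraries. In endocrine-like cells the beta marker Mafa had 0 UMIs in both libraries and the delta marker Ghsr 0 in the knockout library. Acinar-like cluster 3 held 0 control and 394 knockout cells, and endocrine sub-cluster 1 held 1 control and 89 knockout cells, so the main values resting on them are given with and without them. With 1 library per group there is no replicate, no test was made, and every interval is a 95% interval that covers counting error only (exact Poisson for levels, exact conditional binomial for ratios). The libraries also differed in sex, with Xist at 1 (control) and 46550 UMIs (knockout) and the Y-linked Ddx3y at 1566 and 0, so sex and genotype cannot be told apart. None of the 10 genes lies on chromosome X or Y.

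In GRCm38 (GENCODE M21) the 10 genes lie on 8 chromosomes. Dpy30 spans chr17:74299474-74323944 on the minus strand and overlaps no other annotated gene. The other shared subunits are Ash2l (chr8:25815996-25847694, minus), Wdr5 (chr2:27515157-27536535, plus) and Rbbp5 (chr1:132477365-132505659, plus). The catalytic subunits are Setd1a (chr7:127776670-127800122, plus), Setd1b (chr5:123142193-123168629, plus), Kmt2a (chr9:44803355-44881296, minus), Kmt2b (chr7:30568858-30588726, minus), Kmt2c (chr5:25271798-25498783, minus) and Kmt2d (chr15:98831669-98871204, minus). Setd1a overlaps the same-strand gene model Gm49388, which the files do not list, and Setd1b overlaps the opposite-strand lincRNA Gm26745, which they do list. The tags of such a library mark transcript ends. As the labels do not say which part of Dpy30 was deleted, its tag count is no check of the deletion or of the library labels.

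Promoter sequence is shown for 3 members whose values are described below: Dpy30, which differed with mitosis gene UMIs in each comparison that could be made, and Kmt2a and Kmt2c, whose levels over the classes were most alike. Each is the 250 bases before a RefSeq start site (GRCm38.p6), written 5′ to 3′ on the minus strand, at chr17:74316212-74316461, chr9:44881290-44881539 and chr5:25498784-25499033. Capitals mark matches, on either strand, to any of the 9 motifs named next.
Dpy30: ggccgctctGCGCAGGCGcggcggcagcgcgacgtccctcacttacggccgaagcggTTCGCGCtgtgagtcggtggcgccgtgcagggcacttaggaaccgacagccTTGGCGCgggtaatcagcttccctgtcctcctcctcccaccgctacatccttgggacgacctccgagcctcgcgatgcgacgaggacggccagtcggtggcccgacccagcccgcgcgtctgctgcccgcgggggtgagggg
Kmt2a: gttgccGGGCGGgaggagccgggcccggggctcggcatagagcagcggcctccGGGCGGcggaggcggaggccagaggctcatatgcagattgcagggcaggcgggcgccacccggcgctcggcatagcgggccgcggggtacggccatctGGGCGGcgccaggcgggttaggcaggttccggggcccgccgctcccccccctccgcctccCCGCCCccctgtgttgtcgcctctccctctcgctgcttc
Kmt2c: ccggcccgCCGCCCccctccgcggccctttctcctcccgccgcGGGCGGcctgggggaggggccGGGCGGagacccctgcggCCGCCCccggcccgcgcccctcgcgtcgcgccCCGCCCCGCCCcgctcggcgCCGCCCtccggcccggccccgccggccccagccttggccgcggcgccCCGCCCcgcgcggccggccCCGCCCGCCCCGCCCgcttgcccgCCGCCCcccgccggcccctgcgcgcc

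The motifs searched were TTCGCGC (E2F) and its forms TTGGCGC and also TTCCCGC, GCGCANGCG (NRF1), CCAAT (NF-Y), CCGGAAG (ETS), AAGATGG (YY1), GGGCGG (SP1) and TTTGAA (CHR). The Dpy30 window held 1 match to TTCGCGC, 1 to TTGGCGC and 1 to GCGCANGCG. Among 32851 windows of the same length, 1.28%, 1.97% and 5.16% held these. The Kmt2a and Kmt2c windows held 4 and 12 matches to GGGCGG, which can overlap one another and which 32.7% of windows held, and no match to the other 8 motifs. GC content was 71.6% (Dpy30), 76.8% (Kmt2a) and 91.6% (Kmt2c), against a median of 52.4%, and the windows held 34, 29 and 48 CpG, against a median of 6. Windows of Wdr5 and Rbbp5, whose ratios with mitosis gene UMIs were also all above 1, held 0 matches to the E2F, NRF1, NF-Y and CHR motifs. Of the 4 RefSeq windows of Dpy30, the one shown was chosen after the matches were seen, and 2 of the others overlap it. The shares over all windows therefore do not measure how unusual its matches are, and a link to cell division was not tested. The fourth, at the 5′ end of the gene model (chr17:74323945-74324194), had 40.0% GC, 1 CpG, 1 match to CCAAT and 1 to TTTGAA. The tags do not show which start is used, and a match is a description of letters only.

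Dpy30 was detected in all 7 classes and stood highest in endocrine-like and lowest in mesenchymal-like cells of both libraries. Levels are in CPM (UMIs of the gene per 1000000 UMIs of the class), with 1 tag per molecule, so they are compared here within a gene and not between genes. In the control library Dpy30 stood at 157 CPM in endocrine-like, 130 in ductal-like, 124 in mesothelial-like, 112 in acinar-like, 106 in endothelial-like, 87.6 in macrophage and myeloid-like and 68.4 in mesenchymal-like cells. From ductal-like to mesenchymal-like cells, each class's interval overlapped that of the next in the order. In the knockout library the order was endocrine-like (282 CPM), acinar-like (169), ductal-like (157), mesothelial-like (120), macrophage and myeloid-like (103), endothelial-like (102) and mesenchymal-like (74.7). The highest class was 2.30-fold above the lowest in the control and 3.78-fold in the knockout library. Without endocrine sub-cluster 1 and acinar cluster 3 the knockout order was the same, with 205 CPM (183 to 229) in endocrine-like and 173 (160 to 187) in acinar-like cells, and the range was 2.75-fold.

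The place of acinar-like cells in that order depended on the total in the control library, where they moved from the fourth place to the second, and not in the knockout library. When enzyme, hormone, haemoglobin, mitochondrial and ribosomal protein genes were left out of the totals, Dpy30 in the control library stood at 295 CPM in endocrine-like, 259 in acinar-like and 202 in ductal-like cells, and mesenchymal-like cells were still lowest at 106 CPM. In the knockout library the same values were 461, 356, 244 and 115 CPM. Barcodes with under 500 genes, left out above, held Dpy30 at 2.18 CPM (7 UMIs) in the control and 5.61 CPM (24 UMIs) in the knockout library. In 26 erythroid-like cells of both libraries it stood at 24.6 CPM (9.03 to 53.5), on 6 UMIs.

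Shares of cells with a Dpy30 UMI were taken after thinning each cell to 2000 UMIs, which left out 0 to 15 cells per class and library. In endocrine-like cells the share was 28.6% (24.0% to 33.5%) in the control and 47.1% (40.6% to 53.6%) in the knockout library, exact binomial intervals. Without thinning the shares were 77.8% and 81.1%, at median depths of 9276 and 7444.5 UMIs. Without sub-cluster 1 the thinned shares were 28.7% and 34.2% (26.7% to 42.4%), with overlapping intervals. Acinar-like cells had 15.4% (9.06% to 23.8%) and 27.7% (24.5% to 31.1%) after thinning, and 41.3% and 71.7% without it, at median depths of 6073 and 11625 UMIs. The thinned knockout share was 27.3% without cluster 3. In mesenchymal-like cells the thinned shares were 11.9% and 14.7%, and in erythroid-like cells of the knockout library 5.0% (1 of 20 cells). All these shares cover cells with a captured tag, not cells that express the gene.

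**Figure D1:**
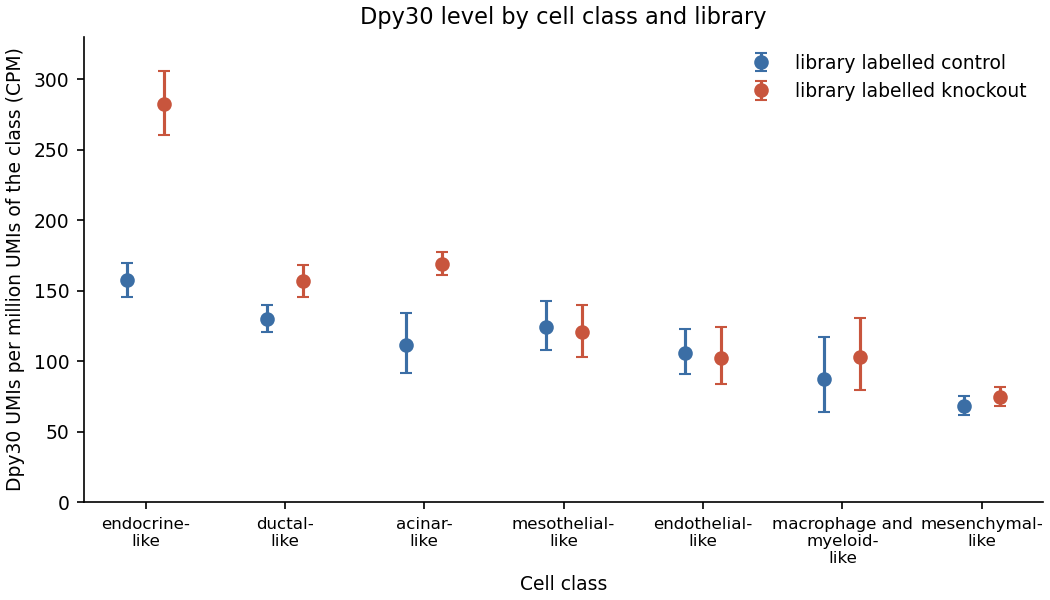
Dpy30 level (CPM, from the UMI total of the class) in 7 cell classes of the library labelled control (blue) and the library labelled knockout (red). Points are class sums and bars are 95% Poisson counting intervals. Endocrine-like cells were highest in both libraries (157 and 282 CPM) and mesenchymal-like cells lowest (68.4 and 74.7).

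The other core subunits had other orders. Ash2l, the partner that DPY30 binds, was highest in ductal-like cells, at 54.9 CPM (49.1 to 61.3) in the control library, clear of endocrine-like cells at 30.8 CPM (25.8 to 36.5). In the knockout library ductal-like and endocrine-like cells had 44.3 and 43.7 CPM of Ash2l, with overlapping intervals, and endocrine-like cells led with the other totals (71.3 against 69.1 CPM). Without sub-cluster 1, endocrine-like knockout cells had 35.1 CPM of Ash2l (26.3 to 45.9), below ductal-like cells and still with overlapping intervals. Wdr5, a WD-repeat protein that joins the module to the catalytic subunit, ran from 17.3 to 21.4 CPM over the 7 classes of the control library, a 1.24-fold range, and from 10.9 to 24.8 CPM in the knockout library. Rbbp5, which binds ASH2L and the catalytic SET domain, ran from 7.44 to 15.6 CPM and from 7.78 to 16.7 CPM, and each class's interval overlapped the next in both libraries.

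Among the catalytic subunits, Kmt2a, Kmt2c and Setd1b were highest in endocrine-like cells of both libraries with either total. In the control library Kmt2a reached 81.7 CPM in endocrine-like cells, ranged from 57.6 in endothelial-like to 33.1 in macrophage and myeloid-like cells, and was at 16.9 in acinar-like cells, a 4.83-fold range. In the knockout library it stood at 120 CPM (endocrine-like), between 26.5 and 54.1 in the 5 other non-acinar classes, and at 26.0 in acinar-like cells. With the other totals acinar-like cells were still lowest for Kmt2a in the control library, at 39.2 CPM, but in the knockout library macrophage and myeloid-like cells were lower (36.4 against 54.8 CPM). Kmt2c ran from 55.9 CPM in endocrine-like to 22.9 in acinar-like cells of the control library and from 83.2 to 32.4 CPM in the knockout library. Its place in acinar-like cells rested on the total too: with the other totals macrophage and myeloid-like cells were lowest in both libraries. Setd1b stood at 41.9 and 55.6 CPM in endocrine-like cells and between 25.5 and 37.8 CPM in all other classes of both libraries.

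Kmt2b, Kmt2d and Setd1a rested on fewer UMIs. Kmt2d was highest in endothelial-like cells of the control library (37.0 CPM) and in endocrine-like cells of the knockout library (34.0 CPM), and 12.9 CPM in acinar-like cells of both libraries. With the other totals endocrine-like cells led Kmt2d in both libraries. In the control library they had 60.0 CPM against 55.7 in endothelial-like cells, with overlapping intervals. Kmt2b had its lowest levels in acinar-like cells, at 4.98 CPM (5 UMIs) and 9.57 CPM (96 UMIs), and with the other totals this changed. Mesenchymal-like cells were then lowest in the control library, at 11.488 CPM against 11.5434, and in the knockout library the mesenchymal-, mesothelial- and macrophage-like classes (17.1 to 19.3 CPM) all lay below acinar-like cells (20.1). For Setd1a each class's interval overlapped the next in both libraries, between 6.97 and 15.6 CPM. Over the 14 class sums, log2 levels of Kmt2a and Kmt2c had a Pearson r of 0.91, Kmt2a and Kmt2d 0.77, and Dpy30 and Setd1b 0.75, while Dpy30 and Ash2l had 0.53 and Dpy30 and Wdr5 0.07. These describe sums that share their libraries and their totals.

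**Figure D2:**
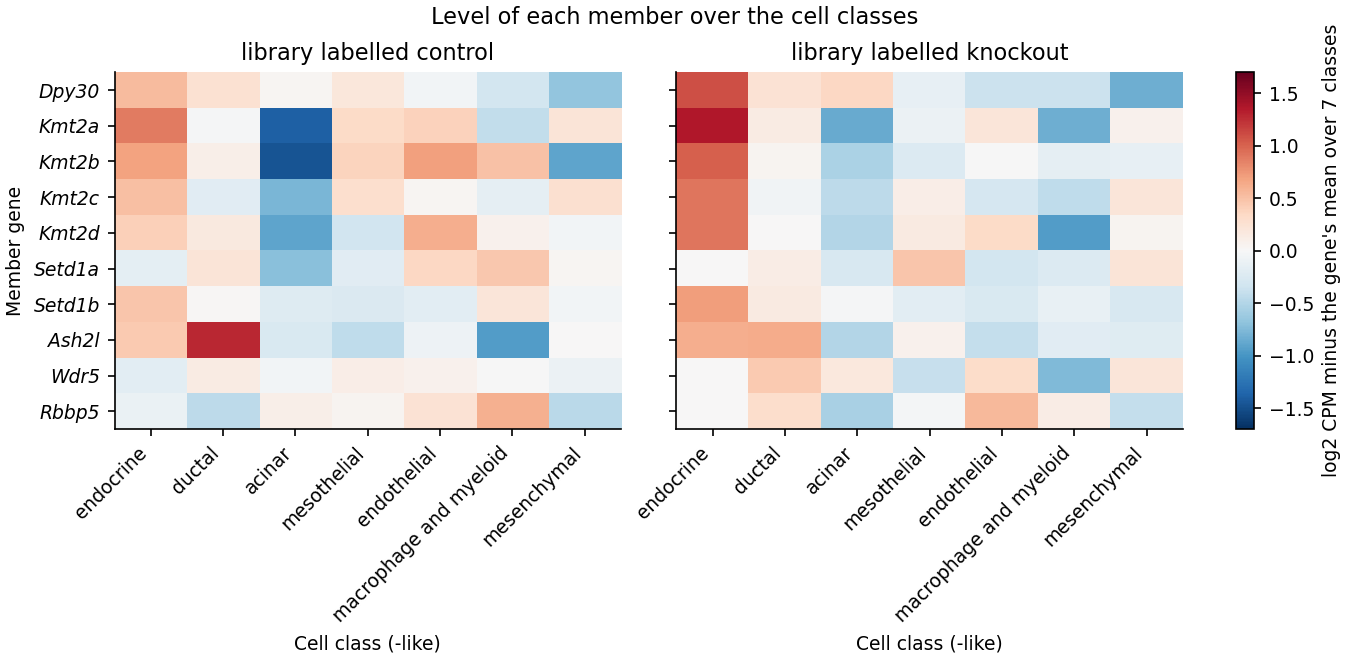
Level of each of the 10 genes (rows) over 7 cell classes (columns), as log2 CPM minus the gene's own mean over the classes of that library, for the library labelled control (left) and knockout (right). Red is above and blue below the gene's mean. Kmt2a runs from endocrine-like (81.7 and 120 CPM) to acinar-like cells (16.9 and 26.0), and Ash2l peaks in ductal-like cells of the control library (54.9 CPM).

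By a rule of likeness over the 14 sums (Pearson r of log2(CPM + 10), 3740 genes with at least 10 CPM in each sum), the 5 genes most like Dpy30 were Slc25a39 (r = 0.90), Hist1h2bc (0.90), Tceb1 (0.89), Gabarapl2 (0.88) and Hint2 (0.87). The 5 most like the sum of the 6 catalytic subunits were Prdm2 (0.92), Rbm5 (0.92), Prrc2a (0.91), Bptf (0.91) and Nfat5 (0.91). No gene was on both lists.

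Between the libraries, endocrine-like cells had the furthest Dpy30 ratio from 1 among the 7 classes, but only with sub-cluster 1 counted. The ratio also varied by cluster. Over all endocrine-like cells the knockout level of Dpy30 was 1.80-fold that of the control (1.61 to 2.01; 683 and 614 UMIs). In beta-like cluster 13, led by Ins1 and Ins2, it stood at 127 CPM (112 to 143, 120 cells) in the control and 290 CPM (238 to 351, 23 cells) in the knockout. The ratio was 2.29 (1.81 to 2.87), on fewer knockout cells than the minimum of 50 set for a class. Among all genes tested in that cluster, 96.6% had a lower ratio, and the hormone share of its UMIs was 41.4% and 39.6%. Alpha-like cluster 12, led by Gcg, had 198 and 367 CPM (ratio 1.85, 1.498 to 2.29), and mixed hormone cluster 11, led by Sst, Pyy and Rbp4, had 191 and 371 CPM (ratio 1.94, 1.58 to 2.39). In progenitor-like cluster 19, led by Neurog3, the levels were 155 and 131 CPM, with a ratio of 0.848 (0.623 to 1.15), an interval that holds 1. With sub-cluster 1 counted it does not overlap the intervals of the other 3 clusters, and without it only that of cluster 13 stands apart. The difference between clusters was not tested.

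Sub-cluster 1 held about as many Dpy30 UMIs as all other endocrine-like knockout cells. Its 89 knockout cells held 304 of the 614 Dpy30 UMIs, at 458 CPM (408 to 512), against 205 CPM in the other 149 endocrine-like cells of that library, a ratio of 2.23 (1.90 to 2.62). Its 10 leading genes held 4 haemoglobin genes, Xist and the acinar marker Cpa1. Among the marker lists the acinar one had most matches, 5 markers, but only 1 of these was among the 10 leading genes. The naming rule left the sub-cluster unnamed. Cpa1 stood at 85.9 CPM, against 20.5 in the other knockout and 10.1 in the control cells. The 19 acinar markers summed to 1440 CPM (16 with UMIs, and Gp2, Cuzd1 and Pnlip at 0), against 1088 and 421 CPM, and their part in the Dpy30 level was not tested. Over whole classes these markers were also higher in the knockout library in mesenchymal-like (643 and 1253 CPM) and macrophage and myeloid-like cells (512 and 1843). The same held in endothelial-like (380 and 928 CPM) and mesothelial-like cells (455 and 1022). The acinar markers were lower in acinar-like (182575 and 89719) and ductal-like cells (2271 and 1838). Haemoglobin genes took 1.88% of the UMIs of sub-cluster 1 against 0.481% in the other knockout cells. It also carried hormone and secretory transcripts. Ins1 stood at 23830 CPM against 25076 in the other knockout cells, Ins2 at 26634.5 against 63744, and Pcsk2, a prohormone convertase, at 3915 against 1327. Beta markers summed to 65524 against 106600 CPM and alpha markers to 18213 against 10501. The leading gene Pou3f4 was at 169 CPM against 42.4, and Neurog3 at 75.3 against 1028. Without it, the ratio over all endocrine-like cells was 1.30 (1.14 to 1.49). It was 1.05 (0.739 to 1.46) in cluster 12, 1.48 (1.12 to 1.95) in cluster 11 and 2.20 (1.72 to 2.78) in cluster 13, where 21 knockout cells remained. The hormone share of endocrine-like UMIs differed between the libraries (25.8% and 12.5%), and progenitor-like cells were 71 of 238 in the knockout and 56 of 370 in the control library. Their part in the Dpy30 ratio was not tested beyond the values by cluster.

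**Figure D3:**
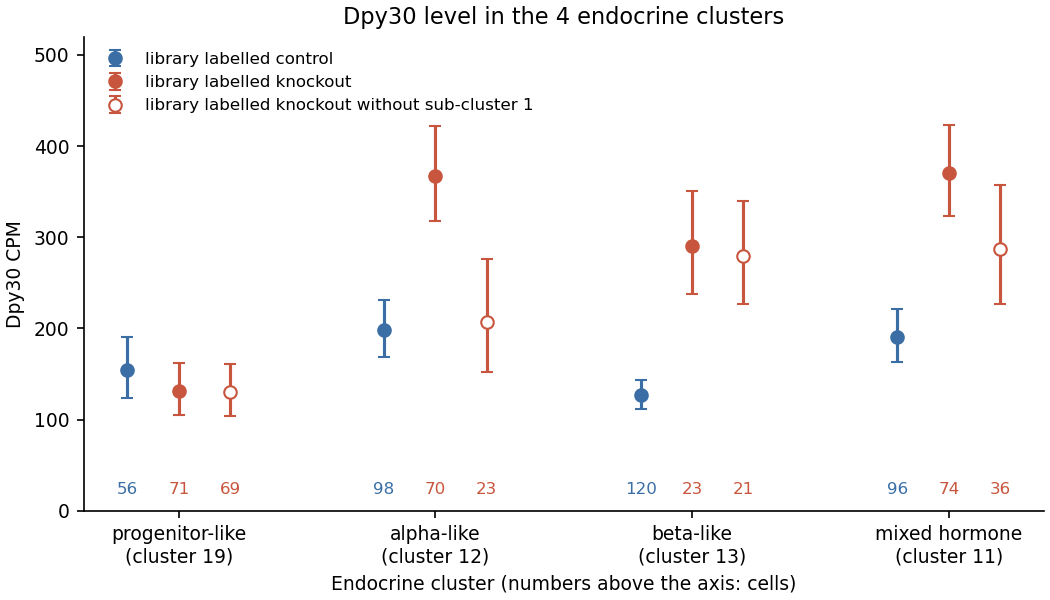
Dpy30 level (CPM) in the 4 endocrine clusters of the library labelled control (blue), the library labelled knockout (filled red) and the knockout library without sub-cluster 1 (open red), with 95% Poisson counting intervals and cell numbers above the axis. Beta-like cells have 127 and 290 CPM, or 279 without the sub-cluster, while progenitor-like cells lie at 155 and 131 CPM. The 23 beta-like knockout cells are fewer than the minimum of 50 set for a class.

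Of the other 9 genes, Kmt2c alone had a beta-like interval above 1. In cluster 13 Kmt2a had 50.2 and 43.0 CPM (104 and 16 UMIs), and Kmt2d 20.3 and 5.38 CPM on 42 and 2 UMIs (ratio 0.265, 0.0311 to 1.02). Kmt2c had 36.7 and 64.5 CPM there (ratio 1.76, 1.06 to 2.81), and the intervals of the remaining 6 genes held 1. In sub-cluster 1, compared with the other endocrine-like knockout cells, Kmt2a was at a ratio of 1.47 (1.14 to 1.90), Kmt2c at 1.65 (1.21 to 2.23) and Ash2l at 1.80 (1.17 to 2.75), with all 10 genes above 1. The median log2 ratio of all genes in that comparison was 0.19.

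A call here means at least 1.5-fold between the libraries with at least 20 UMIs in both together. In endocrine-like cells 1 of the 10 genes, Dpy30, was called higher and 0 lower, against 21.3% and 6.50% of all genes. All 10 had a ratio above 1, as did most genes of this class, whose lower quartile of log2 ratios was -0.035. The median log2 ratio was 0.38 for the 10 members beside 0.25 over all genes. The largest after Dpy30 were Kmt2c, from 55.9 to 83.2 CPM (1.49, 1.22 to 1.81), and Kmt2a, from 81.7 to 120 CPM (1.47, 1.253 to 1.74). Without sub-cluster 1 no member was called, Kmt2a stood at 1.29 (1.06 to 1.56), and the interval of Kmt2c (1.24, 0.980 to 1.57) held 1.

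In acinar-like cells Dpy30, Kmt2a and Kmt2b were called higher and 0 lower, where 27.3% and 8.83% of all genes were, so the count of 3 in 10 is near the background. Dpy30 went from 112 to 169 CPM (1.52, 1.252 to 1.85), while the intervals of Kmt2a (1.54, 0.942 to 2.68) and Kmt2b (1.92, 0.796 to 6.06), on 17 and 5 control UMIs, held 1. The median log2 ratio of all genes was 0.20, and enzyme genes took 21.0% of acinar UMIs in the control and 13.8% in the knockout library. Relative to the median of all genes, the Dpy30 ratio was 1.32. In cluster 5, which both libraries share (92 and 283 cells), Dpy30 had 93.7 and 131 CPM (1.40, 1.08 to 1.82), with a median log2 ratio of all genes of 0.00. Without cluster 3 the class ratio was 1.55 (1.27 to 1.91). Within the knockout library, cluster 3 had Dpy30 at 167 CPM and the other acinar-like cells at 173, and of the catalytic subunits Setd1b stood at 38.0 against 25.8 CPM (1.47, 1.16 to 1.89) and Kmt2c at 35.3 against 27.4 (1.29, 1.02 to 1.65).

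In ductal-like cells single members differed in both directions. Rbbp5 was called higher, from 7.48 to 14.1 CPM (1.88, 1.27 to 2.81; 44 and 68 UMIs), and 0 members lower, against 5.87% and 5.68% of all genes. Kmt2d, the MLL4 enhancer methyltransferase, went from 27.0 to 18.2 CPM (0.673, 0.513 to 0.879, on 159 and 88 UMIs), just inside the 1.5-fold threshold. Of all genes, 5.94% had a lower ratio. Ash2l went from 54.9 to 44.3 CPM (0.806, 0.675 to 0.960). Dpy30 went from 130 to 157 CPM (1.20, 1.09 to 1.33) and Kmt2c from 34.2 to 42.4 CPM (1.24, 1.02 to 1.51). Intervals of the 5 other genes held 1.

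The ductal values were also read by cell division. In ductal-like cells with no UMI of 20 G2M genes (transcripts of dividing cells, counted after thinning), Dpy30 stood at 111 and 117 CPM (1.05, 0.896 to 1.24), and in those with at least 2 such UMIs at 160 and 198 CPM (1.24, 1.06 to 1.44). Cells with at least 2 were 127 of 500 thinned cells in the control and 126 of 379 in the knockout library. Kmt2d was at 0.616 (0.405 to 0.919) in the cells with none. The 2 ratios of Dpy30 have overlapping intervals and their difference was not tested.

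Outside the epithelium the Dpy30 intervals of the 4 compared classes held 1. It had 68.4 and 74.7 CPM in mesenchymal-like cells (1.09, 0.956 to 1.248), 106 and 102 CPM in endothelial-like cells (0.969, 0.753 to 1.24), 124 and 120 CPM in mesothelial-like cells (0.969, 0.786 to 1.19), and 87.6 and 103 CPM in macrophage and myeloid-like cells (1.17, 0.791 to 1.75). Pericyte and smooth muscle-like cells, which with 91 and 43 cells fell under the class minimum, had 68.7 and 121 CPM on 41 and 33 UMIs (1.76, 1.08 to 2.86). Mesenchymal cluster 4, led by Mfap4, Serpine2 and Bgn, lay the other way from the class, at 69.3 and 46.0 CPM (0.664, 0.454 to 0.968). It was picked from several mesenchymal clusters, the others are not listed here, and a difference between clusters was not tested. In mesenchymal-like cells Kmt2b was called higher, from 7.44 to 12.5 CPM (1.68, 1.15 to 2.49; 42 and 89 UMIs), and 0 members lower, against 4.11% and 6.40% of all genes. In endothelial-like cells 0 members were called higher and 3 lower, against 7.59% and 9.73% of all genes: Kmt2b (0.613), Kmt2d (0.611) and Setd1a (0.608), on 14, 23 and 9 knockout UMIs and with intervals that held 1.

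Ash2l, which was lower in ductal-like cells, lay the other way in mesothelial-like cells, at 16.8 and 29.9 CPM (1.78, 1.08 to 3.004; 27 and 43 UMIs). It was called higher there with Setd1a (1.54), while Kmt2b (0.657) and Wdr5 (0.659) were called lower, 2 members each way against 7.16% and 9.97% of all genes. The intervals of these other 3 genes held 1. In macrophage and myeloid-like cells only 5 members reached 20 UMIs. Of these Ash2l was called higher (2.13, 0.793 to 6.65, on 6 and 16 UMIs) and 0 lower, against 10.3% and 13.2% of all genes, and its interval held 1.

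**Figure D4:**
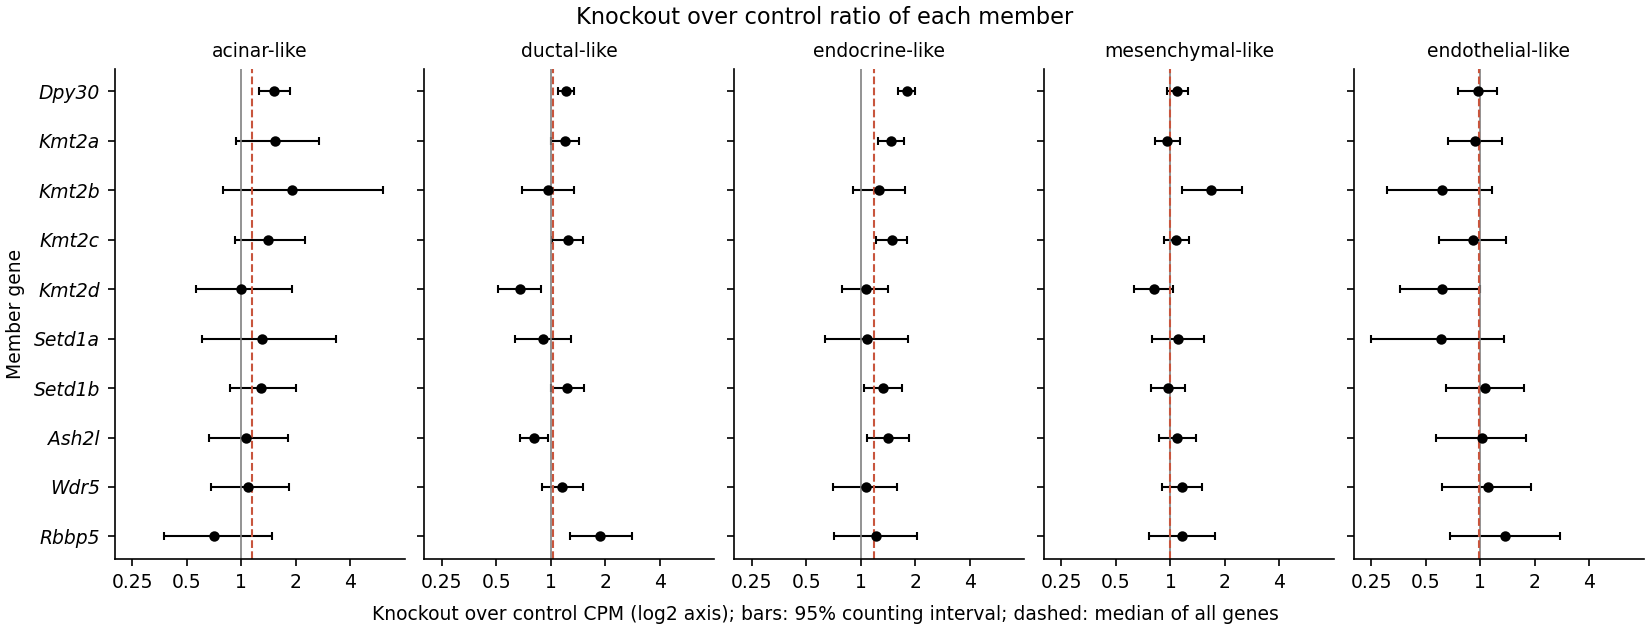
Knockout over control ratio of CPM (log2 axis) for the 10 genes in 5 cell classes, with 95% counting intervals, a grey line at 1 and a dashed line at the median ratio of all genes. In ductal-like cells Kmt2d (0.673) and Ash2l (0.806) lie below 1 and Rbbp5 (1.88) above it. In endocrine-like cells all 10 genes lie above 1, as does the median of all genes.

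Dpy30 was higher in dividing than in other cells in all 5 comparisons that could be made. Cells with at least 2 G2M UMIs were compared with cells that had none, inside each class and library with at least 50 cells on both sides. In the control library Dpy30 stood at 160 against 111 CPM in ductal-like cells (1.44, 1.23 to 1.68) and at 90.3 against 58.3 in mesenchymal-like cells (1.55, 1.22 to 1.96). In the knockout library it stood at 198 against 117 CPM in ductal-like (1.69, 1.44 to 1.98), 99.95 against 65.2 in mesenchymal-like (1.53, 1.26 to 1.86) and 224 against 149 in acinar-like cells (1.51, 1.34 to 1.71). Between 74.8% and 91.4% of all genes had a lower ratio, and the dividing cells were deeper (13125 against 9220 median UMIs in ductal-like control cells).

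No other member had intervals above 1 in more than 1 of these 5 comparisons. Those above 1 were Setd1b in ductal-like control cells (1.47, 1.07 to 2.01), Wdr5 in ductal-like knockout cells (1.77, 1.16 to 2.74), Kmt2b in acinar-like (1.86, 1.13 to 2.97) and Rbbp5 in mesenchymal-like knockout cells (2.01, 1.12 to 3.56). Kmt2c was lower with G2M UMIs in ductal-like control cells, at 26.0 against 39.7 CPM (0.654, 0.464 to 0.911). Wdr5 (1.21 to 1.77) and Rbbp5 (1.05 to 2.01) had ratios above 1 in all 5, on fewer UMIs than Dpy30, and their other intervals held 1. Kmt2a lay between 0.916 and 1.28 in the 5 comparisons, with every interval holding 1.

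**Figure D5:**
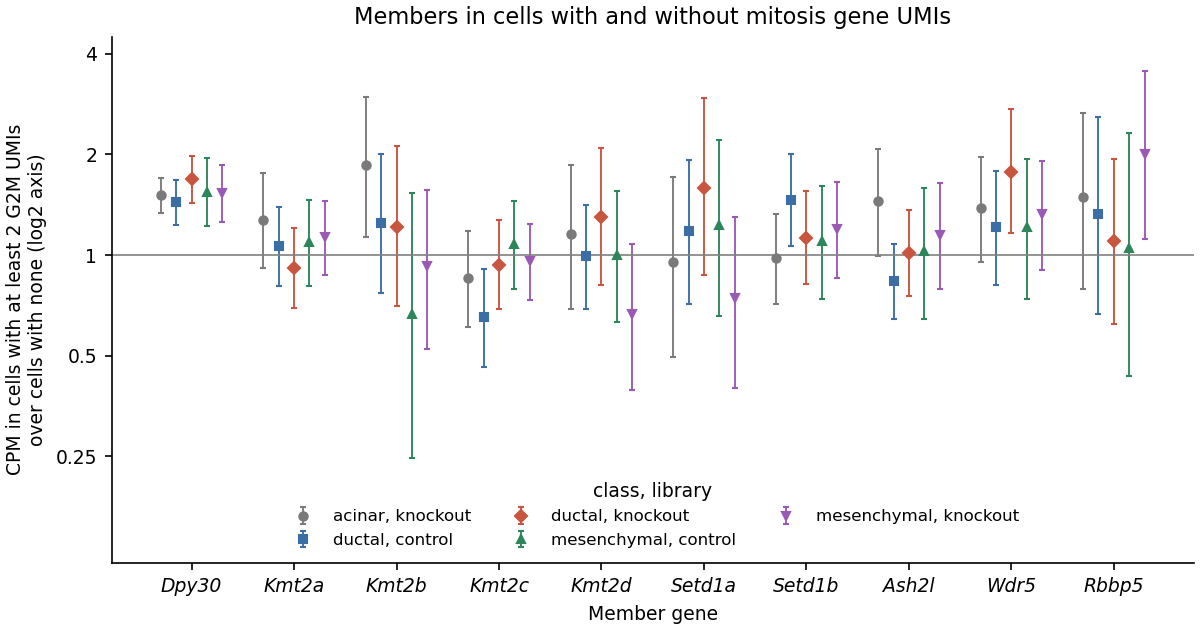
Ratio of CPM in cells with at least 2 G2M UMIs to cells with none (log2 axis) for the 10 genes in 5 class and library comparisons, with 95% counting intervals. Dpy30 lies between 1.44 and 1.69 in all 5. Wdr5 (1.21 to 1.77) and Rbbp5 (1.05 to 2.01) also lie above 1 in all 5, on fewer UMIs. Each of the other genes lies on both sides of 1.

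Genes that belong to single COMPASS complexes or act on the same mark were read from lists, beside the shares of all genes given above (5.87% higher and 5.68% lower in ductal-like, 21.3% and 6.50% in endocrine-like, 27.3% and 8.83% in acinar-like cells). In ductal-like cells the SET1-specific list had 0 of 5 called either way, with a median log2 ratio of 0.25, and the MLL1/2-specific list had 1 of 4 higher, the host cell factor Hcfc2 at 1.55-fold (1.06 to 2.28). The MLL3/4-specific list had 1 of 3 higher, Kdm6a, an H3K27 demethylase, from 15.5 to 29.6 CPM (1.91, 1.46 to 2.51). In endocrine-like cells 1 of 5, 0 of 4 and 1 of 3 of these lists were called higher and 0 lower. Kdm6a was again higher (2.09, 1.54 to 2.84), as was the SET1 subunit Wdr82, from 16.3 to 29.9 CPM (1.83, 1.29 to 2.60). In acinar-like cells the same lists had 1, 0 and 1 called higher and 0, 0 and 1 lower. Cxxc1, which brings SETD1 to unmethylated CpG, went from 19.9 to 34.8 CPM (1.75, 1.11 to 2.90) and Paxip1, an MLL3/4 subunit, from 15.9 to 7.58 CPM (0.476, 0.275 to 0.874).

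Of the H3K4 demethylases, which remove the mark, Kdm5c was at 1.67 (1.32 to 2.13) in ductal-like and 1.78 (1.36 to 2.31) in endocrine-like cells, while Kdm5b was at 0.849 (0.721 to 0.999) and 1.39 (1.14 to 1.68). Kdm6a and Kdm5c are X-linked and Kdm5d (279 control and 0 knockout UMIs) is Y-linked. For these 3 genes too, sex and genotype cannot be told apart, and the cause was not tested. The Polycomb list, which holds genes of the opposing H3K27 and H2A marks, had 0 of 26 called in ductal-like cells (median log2 ratio 0.04 beside 0.03 over all genes) and 3 of 26 higher in endocrine-like cells (0.20 beside 0.25), a share below the 21.3% of all genes, among them Jarid2 at 1.63 (1.31 to 2.02). Chromatin remodellers had 0 of 18 and 2 of 18 called, the latter higher and also below that background, with Smarcc1 at 1.51 (1.26 to 1.81) and Ino80 at 1.76 (1.03 to 2.98).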

How the data were processed

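Per the file headers, the deposited matrices hold whole UMI counts per gene and cell barcode, written by Cell Ranger 3.0.0; the library chemistry was 10x Chromium 3' v2. The submitters' processing notes list Seurat (versions 2 and 3) beside Cell Ranger, with mm10 and GRCm38 as builds. The gene table of the deposit was not used. Per the labels, the tissue of both libraries was digested for 20 min. The 10 genes, the marker and gene lists and the rule for named genes were chosen with earlier results of these data known. The rule names all 10 members, from every list the 2 highest UMI sums and the 2 most distant ratios (at least 50 UMIs), and the 5 genes most like a profile.

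The full libraries held 25398522 and 33048640 UMIs. The filters were applied: 1290 control and 1465 knockout barcodes had fewer than 500 genes, 63 and 57 exceeded 10% mitochondrial UMIs, and Scrublet called 26 and 24 doublets. Variable genes (2000, with enzyme, hormone, haemoglobin, mitochondrial, ribosomal protein, sex-linked and chromatin genes left out) gave 30 principal components, a graph of 15 neighbours and, by Leiden at resolution 1, 29 clusters. Cluster names needed 3 or more markers of a class, out of 22 classes, in the 50 leading genes after cell cycle genes (correlation of at least 0.2) were left out. Clusters whose median depth was below 1/3 of their library's stayed unnamed. So did those with more markers of another class among their 10 leading genes. The endocrine-like cells were clustered again into 12 sub-clusters. UMIs were summed per class and divided by the class total. Of 155 list genes, 150 are in the files. Calculations were tested on simulated data. No test across animals was run, and 15 other settings, with 3 more chosen after seeing the data, are in the closing section. Promoter windows were found for 7 of the 10 genes. The software was scanpy 1.11.5 with leidenalg 0.10.2, SciPy 1.17.1 and pandas 2.3.3.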

Additional observations from a re-analysis of the deposited data

How the results depend on the processing

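The Dpy30 ratio kept its direction in acinar-, ductal-, endocrine- and mesenchymal-like cells under every setting run (12, and 3 more added after seeing the data). In endothelial-like cells it ran from 0.953 to 1.08, in mesothelial-like cells from 0.948 to 1.01 and in macrophage and myeloid-like cells from 0.962 to 1.60, on both sides of 1. Most ratios stayed inside the counting interval of the reported value. Those outside it were as follows. In acinar-like cells Dpy30 was at 1.91 with cells thinned to 2000 UMIs and at 2.08 with cells weighted equally. In endocrine-like cells it was at 2.20 with thinning, 1.56 with totals that leave out enzyme, hormone, haemoglobin, mitochondrial and ribosomal protein genes, 1.51 relative to the median of all genes and 1.30 without sub-cluster 1. In ductal-like cells without G2M UMIs it was at 1.05. The last 2 settings, and cells with at least 2 G2M UMIs, were added after seeing the data. Of 781 further values for the members (settings by class), 768 stayed inside the interval, 13 lay outside it and 0 reversed a called direction; the cause was not tested.

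Counts of members at least 1.5-fold apart are small and moved often. In acinar-like cells the count of 3 became 6 with equal weights, 7 at the lower fold threshold and 0 at 2-fold. In ductal-like cells 1 became 2 without doublet removal, relative to the median of all genes, with equal weights, at the lower fold threshold and in cells with 0 or at least 2 G2M UMIs, 3 with thinning and 0 at 2-fold. In endocrine-like cells 1 became 4 with at most 5% mitochondrial UMIs, 3 with each library clustered alone or with thinning, 2 with equal weights, with 5% of each class subtracted as the library profile or in cells with 0 G2M UMIs, 6 at the lower fold threshold, and 0 at 2-fold or without sub-cluster 1. In mesenchymal-like cells 1 became 0 with at least 1000 genes, at resolution 2, with each library clustered alone or at 2-fold, and 3 in cells with at least 2 G2M UMIs. In endothelial-like cells 3 became 1 with thinning and 0 at 2-fold. In mesothelial-like cells 4 became 2 with at most 5% mitochondrial UMIs, without doublet removal or with equal weights, 1 with thinning and 0 at 2-fold. In macrophage and myeloid-like cells 1 became 2 without doublet removal or at the lower fold threshold and 5 with no UMI minimum.

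No paired analysis was possible because each group is 1 library. Differences between these 2 libraries have no replicate, and sex, the resuspension volume (500 µL control, 250 µL knockout) and the makeup of the cells differ with the label. Members with few UMIs per class, such as Setd1a, Rbbp5 and Kmt2b, are limited by depth: on 33 UMIs in endothelial-like cells the interval of Setd1a ran from 0.249 to 1.35.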
